A study of Mus musculus with 4 samples.

Results

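The chemokine ligands and receptors comprised every gene whose symbol begins with Ccl, Cxcl, Ccr or Cxcr followed by a digit, together with Cx3cl1, Cx3cr1 and Xcl1, counted only where a probe set carries that symbol alone. The rule found 72 of 45037 probe sets, which represent 48 of 17097 genes, of which 34 encode ligands and 14 receptors. They were measured in ATDC5 cells, a mouse chondrogenic line that lays down cartilage-like matrix when it differentiates. Knockdown cells had received an RNA duplex against Chadl, which encodes chondroadherin-like, a leucine-rich repeat protein of cartilage (2 arrays, knockdown 1 and knockdown 2), and the control cells a scrambled duplex (2 arrays, control 1 and control 2). All cells were given 30 nM of a 27-mer duplex with a lipid reagent, were changed to differentiation medium after 16 h, and were harvested at 5 days of differentiation. The labels report a single effective Chadl duplex, so every knockdown value comes from 1 sequence in 1 cell line, and no untransfected culture is among the 4 arrays. Replicates are labelled as biological, but nothing says that they came from separate cultures, and p-values therefore measure only the spread between these arrays, which may be technical. Values are log2 signals per probe set after RMA, a method that subtracts background, gives the arrays the same distribution of probe signals and summarises the probes of each probe set.

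Chemokines are small secreted proteins that guide moving cells along gradients, named C, CC, CXC or CX3C after the spacing of their first cysteines. They act through receptors with membrane-spanning helices that couple to inhibitory G proteins, and most receptors sit on leukocytes. Inflammatory chemokines are transcribed on demand through NF-kB and interferon-regulated factors, while homeostatic ones such as CXCL12 are made steadily by stromal cells. Stromal cells and chondrocytes exposed to inflammatory cytokines are known producers of several of these ligands.

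Promoter sequences are shown for 5 CXC ligand genes. Of these, the neighbours Cxcl9 and Cxcl10 read alike in the arrays described below and the neighbours Cxcl1 and Cxcl2 read differently. Cxcl12 lies on another chromosome. Each run is the 250 bases before the RefSeq start of the gene in GRCm38.p6, 5′ to 3′ on the gene's own strand, and capitals mark matches to a kappaB motif or to an interferon-stimulated response element (ISRE).
Cxcl10 (chr5:92348890-92349139, minus strand): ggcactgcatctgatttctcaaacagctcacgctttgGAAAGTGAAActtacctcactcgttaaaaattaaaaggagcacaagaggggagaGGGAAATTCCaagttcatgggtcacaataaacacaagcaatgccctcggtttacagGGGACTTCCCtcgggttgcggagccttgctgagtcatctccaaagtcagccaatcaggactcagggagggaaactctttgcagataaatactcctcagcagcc
Cxcl9 (chr5:92328080-92328329, minus strand): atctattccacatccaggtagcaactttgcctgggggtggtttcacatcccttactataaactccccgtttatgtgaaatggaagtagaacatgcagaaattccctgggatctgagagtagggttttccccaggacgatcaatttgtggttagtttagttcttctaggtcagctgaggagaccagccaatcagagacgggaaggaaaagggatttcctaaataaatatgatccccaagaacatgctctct
Cxcl1 (chr5:90890995-90891244, plus strand): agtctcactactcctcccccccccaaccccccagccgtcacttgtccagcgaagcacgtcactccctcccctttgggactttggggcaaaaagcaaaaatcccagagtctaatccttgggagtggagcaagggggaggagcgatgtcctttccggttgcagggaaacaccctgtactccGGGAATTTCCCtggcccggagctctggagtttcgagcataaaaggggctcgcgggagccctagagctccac
Cxcl2 (chr5:90903649-90903898, plus strand): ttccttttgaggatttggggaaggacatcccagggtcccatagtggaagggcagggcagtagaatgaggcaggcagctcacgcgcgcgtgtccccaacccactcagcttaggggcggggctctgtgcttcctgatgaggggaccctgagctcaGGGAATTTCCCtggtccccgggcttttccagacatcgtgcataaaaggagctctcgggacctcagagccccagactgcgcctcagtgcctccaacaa
Cxcl12 (chr6:117168285-117168534, plus strand): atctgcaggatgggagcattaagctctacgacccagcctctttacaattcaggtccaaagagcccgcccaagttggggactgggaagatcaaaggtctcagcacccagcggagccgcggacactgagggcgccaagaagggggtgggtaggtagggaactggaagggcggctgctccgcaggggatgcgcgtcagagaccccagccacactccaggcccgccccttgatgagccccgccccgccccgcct
The kappaB motif, the DNA site of NF-kB, was searched as GGGA, any 2 bases, 2 pyrimidines (C or T) and CC, and the ISRE, the site of interferon-regulated factors, as GAAA, any 2 bases and GAAA, both on either strand. The motifs overlapped nowhere in the 5 runs shown, but in Cxcl1 and Cxcl2 a kappaB match on the gene's strand and another on the opposite strand overlap in a run of 11 bases, GGGAATTTCCC. In Cxcl10 the ISRE match began 213 bases before the start, and the kappaB matches GGGAAATTCC and GGGACTTCCC began 159 and 103 bases before it. In Cxcl1 the kappaB match began 71 bases and in Cxcl2 97 bases before the start. The windows of Cxcl9 and Cxcl12 held neither motif. Of all 32851 promoters of this length, 4.62% held the kappaB motif and 2.98% the ISRE. RefSeq promoters were matched for 36 of the 48 genes, of which 7 held the kappaB motif and 3 the ISRE. The 7 were Cxcl1, Cxcl2, Cxcl10, Ccl1, Ccr1, Ccr3 and Ccr6, and the 3 were Cxcl10, Cxcl14 and Ccl19. No promoter was matched for Ccl2, Ccl5, Ccl7, Cxcl5 or Cxcl11, so these counts do not cover them. A match describes these letters and not a bound site.

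The genes were first separated into bright and dim ones, since array signal near background understates change. A gene counted as bright where its mean signal over the 4 arrays was at or above 4.86, the median over all genes, and the brightest probe set stood for each gene. By this measure 11 chemokine genes were bright, all of them ligands, and 37 were dim, 23 ligands and all 14 receptors. The 11 were also at or above this level by their control mean alone. The member just inside the limit was Cxcl16, with a mean signal of 4.93, and the member just outside it was Ccl20, with 4.72. Signal depends on each probe's binding as well as on RNA, so the classes do not order genes by abundance.

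Over the whole series the arrays had median signals of 4.24 and 4.25 in the knockdowns and 4.24 and 4.25 in the controls. Chadl itself, read by 1 probe set, was 4.29 and 4.64 in knockdown 1 and 2, against 4.91 and 4.84 in control 1 and 2. It was dim, with a mean signal of 4.67. Its difference from the control mean was -0.58 in knockdown 1 and -0.23 in knockdown 2 (limma unadjusted p = 0.0158, adjusted p = 0.728). Knockdown 1 stood further from the controls: the SD over all genes of the difference from the control mean was 0.20 in knockdown 1 and 0.12 in knockdown 2, while the controls differed from each other with an SD of 0.10. No gene passed an adjusted p of 0.05 in limma (0 of 17097, with 1141 at an unadjusted p of 0.05). Of the chondrogenic markers Sox9, Col2a1, Acan, Sox5, Sox6, Matn1, Col9a1, Col11a1, Comp and Hapln1, 6 of 10 were bright, among them Col2a1 and Sox9. The median difference of these markers was -0.20 in knockdown 1 and 0.02 in knockdown 2, and 1 lay above and 2 below both controls in both knockdown arrays, against 21.2% and 17.1% of all genes. Col2a1, the main cartilage collagen, read 8.23 in knockdown 1 and 9.17 in knockdown 2, against 9.01 and 9.08 in the controls. Matn1, Col9a1 and Hapln1 differed from the control mean by -0.77, -0.68 and -0.62 in knockdown 1, against 0.05, 0.17 and -0.20 in knockdown 2, and Col11a1, the brightest of the list, by 0.10 and 0.20. Sox5 differed by -0.35 in knockdown 1 and -0.16 in knockdown 2, Comp by -0.05 and 0.13, and Sox6 by 0.10 and -0.03. Sox9 differed by 0.006 and -0.011 and Acan by -0.015 and -0.009. Some chondrogenic markers, but not Sox9 or Acan, thus moved in the same array as the ligands described below. The part of these markers in those results was not tested. Because knockdown 1 stands apart, members are described below by array as well as by mean.

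None of the 48 chemokine genes passed over all genes either, and the lowest adjusted p among them was 0.577, for Cxcl5 (limma, 2 arrays per group). Of the 48, an unadjusted p under 0.05 was reached by 5 with a higher signal in knockdown (Cxcl1, Cxcl5, Cxcl11, Cxcl12 and Ccl9) and by 1 with a lower signal (Cxcr5). These are 10.4% and 2.08% of the members, and the shares over all genes were 4.15% higher and 2.52% lower. After adjustment the shares over all genes were 0% in either direction. In 15 members, or 31.2%, both knockdown arrays lay above both controls, against 21.2% of all genes, and in 5, or 10.4%, both lay below, against 17.1%. The median difference was 0.08 over the 48 members and 0.01 over all genes. In these bulk samples more cells making a ligand and more RNA per cell cannot be told apart. The bright ligands differed most from the average gene, and mainly in knockdown 1. In that array 10 of the 11 lay above both controls, against 41.7% of all bright genes, and 6 lay more than 1.5-fold above the control mean, against 1.61% of all bright genes. In knockdown 2, 5 of the 11 lay above both controls, against 46% of all bright genes, and 0 lay more than 1.5-fold above, against 0.222%. Both arrays lay above both controls for 5 of the 11 and below for 0, against 23.9% and 17.3% of all bright genes, and knockdown 1 lay above knockdown 2 for 9, against 46.7%. For the bright ligands the median was 0.34 in the mean of both arrays, 0.59 in knockdown 1 alone and 0.10 in knockdown 2 alone, while the medians of all bright genes were 0.01, 5e-06 and 0.02 in the same order.

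**Figure D1:**
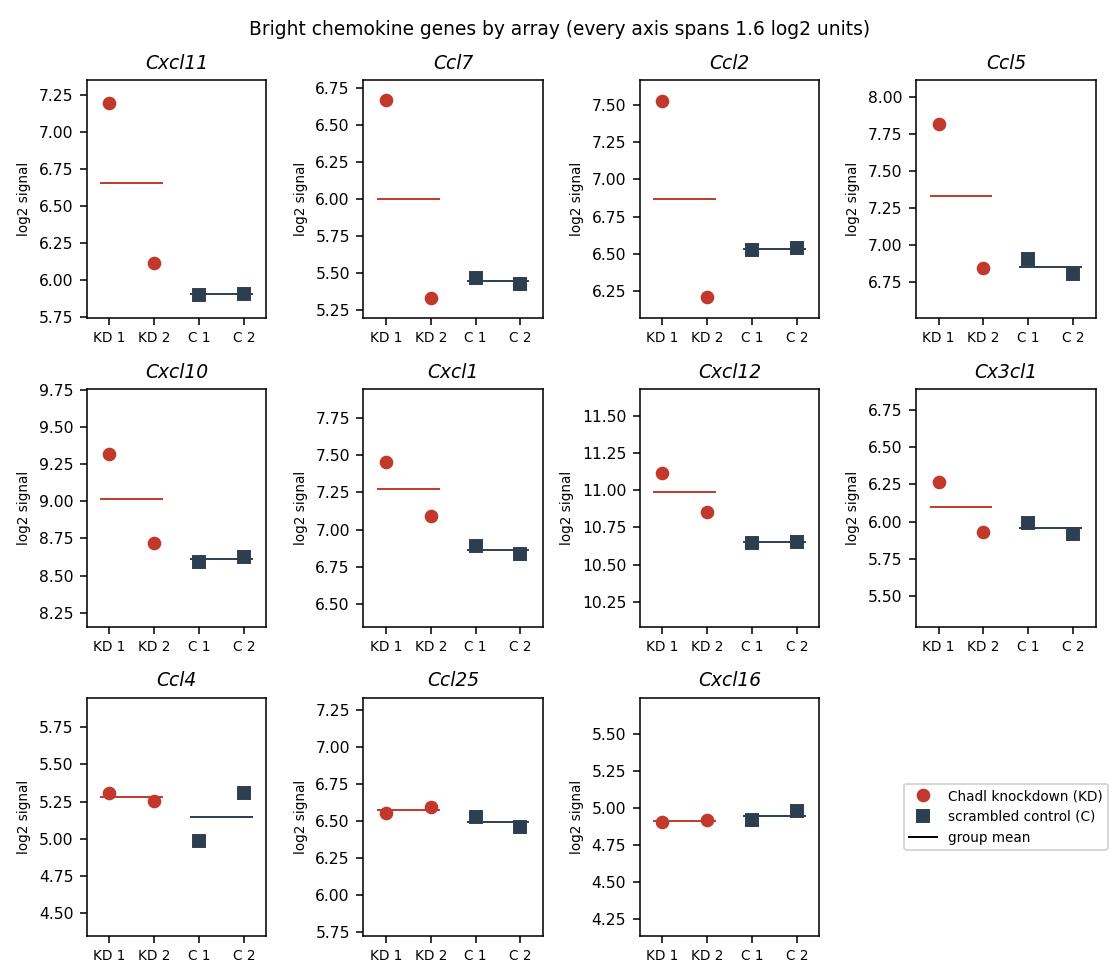
Log2 signal of each bright chemokine gene in the 2 knockdown arrays (KD, circles) and the 2 control arrays (C, squares), with group means as lines and the same axis span of 1.6 log2 units in every panel. Knockdown 1 is the highest array for 9 of the 11 genes, Ccl4 only just, and in Ccl2, Ccl7 and Ccl5 knockdown 2 lies at or below the control mean.

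The 3 ligands of CXCR3 had the highest median of the ligand groups in knockdown 1, 0.94 above the control mean, and 0.14 in knockdown 2. CXCL9, CXCL10 and CXCL11 are interferon-inducible proteins that attract activated T cells and natural killer cells. Cxcl11 read 7.20 in knockdown 1 and 6.12 in knockdown 2, against 5.90 and 5.91 in the controls. The arrays did not overlap, but knockdown 1 lay 2.44-fold and knockdown 2 only 1.16-fold above the control mean. The mean log2 difference was 0.75 (SE 0.31, limma unadjusted p = 0.0493, adjusted p = 0.744), and the unadjusted p was between 0.0503 and 0.134 in 6 of 8 alternative fits of the 4 arrays. A dimmer probe set of Cxcl11 read 4.48 and 3.69 in knockdown 1 and 2, against 3.80 and 3.58 in control 1 and 2. There knockdown 2 fell between the controls.

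Cxcl10 read 9.32 in knockdown 1 and 8.72 in knockdown 2, against 8.59 and 8.62 in the controls. Its controls differed by 0.03 and both knockdown arrays lay above them, 1.63-fold in knockdown 1 and 1.08-fold in knockdown 2 (log2 difference 0.41, SE 0.17, adjusted p = 0.745, limma). Cxcl9 was just under the brightness limit and read 5.27 in knockdown 1 and 4.47 in knockdown 2, against 4.39 and 4.26 in the controls. It also did not overlap, and its difference was 0.94 in knockdown 1 and 0.14 in knockdown 2 (mean 0.54, SE 0.24, adjusted p = 0.749, limma). The 3 genes thus shared a pattern of a clear difference in knockdown 1 and a small one of the same sign in knockdown 2. By the motif patterns searched, the promoter window of Cxcl10 held both motifs and that of Cxcl9 neither. The part of such sites in the shared pattern was not tested. Cxcr3, their receptor, was dim at 4.22 and 4.32 in the knockdowns, against 4.19 and 4.29 in the controls.

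Monocyte-attracting ligands parted between the knockdown arrays. CCL2, the main monocyte attractant acting through CCR2, and its relative CCL7 are encoded by adjacent genes. Ccl2 read 7.53 in knockdown 1 and 6.21 in knockdown 2, against 6.52 and 6.54 in the controls. Knockdown 1 lay 2.0-fold above the control mean and knockdown 2 lay 1.25-fold below it, so the array with the highest signal and the array with the lowest were both knockdowns. The mean log2 difference of 0.34 had an SE of 0.38 and an interval of -0.57 to 1.24 (adjusted p = 0.881, limma). Ccl7 read 6.67 in knockdown 1 and 5.33 in knockdown 2, against 5.47 and 5.43 in the controls. It showed the same split, with differences of 1.22 and -0.12 from the control mean (mean 0.55, SE 0.38, adjusted p = 0.801, limma). The other members of the group were dim, and Ccl8 differed by 0.12 and 0.10 and Ccl12 by -0.02 and -0.02 in knockdown 1 and 2. Ccr2, the receptor of CCL2 and CCL7, was dim. Its brightest probe set differed by -0.12 and 0.14 in knockdown 1 and 2, opposite in sign to the split of its ligands. There the knockdowns read 4.17 and 4.42, against 4.19 and 4.38 in the controls. The 3 dimmer probe sets of Ccr2 did not share these signs, with differences of 0.01 and -0.02, 0.05 and 0.11, and 0.03 and -0.02.

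Ccl5, which encodes a ligand of CCR1 and CCR3 that recruits T cells and monocytes, read 7.82 in knockdown 1 and 6.85 in knockdown 2, against 6.90 and 6.80 in the controls. Only knockdown 1 stood out, 1.95-fold above the control mean, and knockdown 2 fell between the controls (log2 difference 0.48, SE 0.28, adjusted p = 0.769, limma). Ccl4, which encodes a macrophage inflammatory protein, read 5.31 and 5.26 in the knockdowns, against 4.99 and 5.31 in the controls. Its controls differed by 0.32, the widest control gap of the 48 members, and the groups overlapped. The dim Ccl9, a CCR1 ligand, read 4.16 and 4.20 in the knockdowns, against 3.99 and 3.77 in the controls. It differed alike in both knockdown arrays (0.27 and 0.32, adjusted p = 0.728, limma), and its dimmer probe set differed by 0.06. The dim Ccl3 differed by 0.09 in knockdown 1 and 0.29 in knockdown 2, and Ccl6 by -0.06 and -0.10, both without overlap. Of the receptors of this group, Ccr1 differed by -0.11 and 0.20 and Ccr3 by 0.05 and -0.02, each with opposite signs in the arrays.

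**Figure D2:**
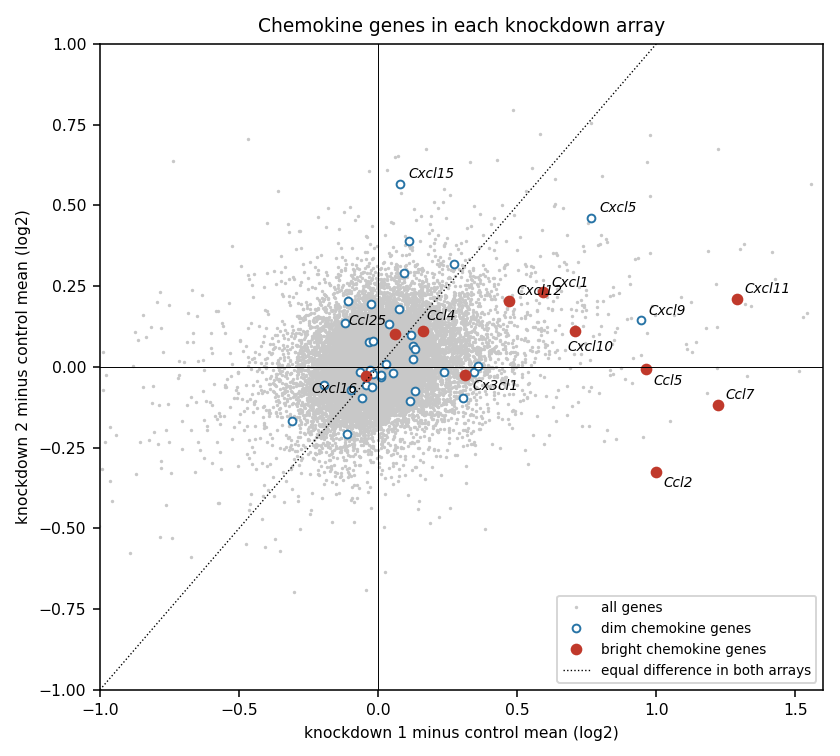
Log2 difference from the control mean in knockdown 1 (horizontal) and knockdown 2 (vertical) for bright chemokine genes (filled), dim chemokine genes (open) and all genes (grey), with 37 genes outside the plotted range. The bright ligands Ccl2, Ccl5 and Ccl7 lie far to the right and at or below 0 vertically, while Cxcl5, Cxcl1 and Cxcl12 are above 0 in both arrays.

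Of 4 neutrophil-attracting CXC ligands 3 lay above both controls in both knockdown arrays, against 21.2% of all genes. CXCL1 and CXCL5 act through CXCR2 and are induced in stromal cells by inflammatory cytokines. Cxcl1 read 7.46 in knockdown 1 and 7.09 in knockdown 2, against 6.89 and 6.84 in the controls. The groups were clearly apart, with knockdown 1 at 1.51-fold and knockdown 2 at 1.17-fold above the control mean (log2 difference 0.41, SE 0.12, 95% confidence interval 0.11 to 0.71, limma unadjusted p = 0.0141, adjusted p = 0.728). Cxcl5 was dim and read 4.62 in knockdown 1 and 4.31 in knockdown 2, against 3.82 and 3.88 in the controls. Both knockdown arrays lay above the controls by more than the gap within either group, 1.70-fold and 1.38-fold (log2 difference 0.61, SE 0.11, limma unadjusted p = 0.00134, adjusted p = 0.577).

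Cxcl15, which encodes lungkine, a neutrophil attractant of mouse lung, read 3.85 in knockdown 1 and 4.34 in knockdown 2, against 3.70 and 3.85 in the controls. Here knockdown 2 was the high array and knockdown 1 lay barely above control 2, so the absence of overlap rests on a very small margin (log2 difference 0.32, adjusted p = 0.752, limma). Cxcl2, encoding another CXCR2 ligand, read 3.24 and 3.03 in the knockdowns, against 2.96 and 3.25 in the controls. It overlapped fully at the 4.47th percentile of signal, and its promoter held the same run of 11 bases as Cxcl1. Cxcr2, their receptor, was dim and differed by -0.02 in knockdown 1 and -0.06 in knockdown 2.

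Cxcl12 was bright in every array and lay higher in both knockdowns. CXCL12, also called stromal cell-derived factor 1, holds progenitor cells in their niches and acts through CXCR4 and the scavenging receptor ACKR3. Its brightest probe set read 11.12 in knockdown 1 and 10.85 in knockdown 2, against 10.64 and 10.65 in the controls. The controls differed by 0.01, and the knockdown arrays lay 1.39-fold and 1.15-fold above their mean (log2 difference 0.34, SE 0.08, 95% confidence interval 0.15 to 0.53, limma unadjusted p = 0.00472, adjusted p = 0.637). A second bright probe set of Cxcl12 read 9.99 and 9.86 in the knockdowns, against 9.41 and 9.40 in the controls. It differed by 0.52 (SE 0.05), almost alike in both arrays, and did not pass over the 45037 probe sets (adjusted p = 0.179, limma). The third probe set, dim at 4.65 and 4.63 against 4.58 and 4.56, differed by 0.07 in the same direction.

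Ackr3, the atypical receptor that binds CXCL12 and CXCL11, is no member by the prefix rule and was the most displaced of its list. It read 6.13 and 6.09 in the knockdowns, against 5.70 and 5.72 in the controls. The knockdown arrays differed from each other by 0.04 and lay 1.32-fold above the controls (log2 difference 0.40, SE 0.08, limma unadjusted p = 0.00171, adjusted p = 0.592). Ackr3 and the Cxcl12 probe set with a difference of 0.52 were therefore displaced to a similar extent in knockdown 2 and knockdown 1, unlike Ccl2, Ccl5 and Ccl7.

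The remaining bright ligands were close to the controls. Cx3cl1 encodes fractalkine, a membrane-anchored ligand, and read 6.27 in knockdown 1 and 5.93 in knockdown 2, against 5.99 and 5.92 in the controls. Only knockdown 1 was outside the control range (log2 difference 0.14, SE 0.12), and its receptor gene Cx3cr1 was dim and differed by 0.03 and 0.01 in knockdown 1 and 2. Ccl25, whose product attracts thymocytes and gut T cells through CCR9, read 6.56 and 6.60 in the knockdowns, against 6.53 and 6.46 in the controls. These arrays did not overlap, yet the difference of 0.08 was about its SE (0.08). Cxcl16, a membrane-bound ligand of CXCR6, read 4.90 and 4.92 in the knockdowns, against 4.92 and 4.97 in the controls. It was the only bright member with a negative difference (-0.04), and its dim second probe set differed by 0.26 in knockdown 1 and 0.03 in knockdown 2.

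**Figure D3:**
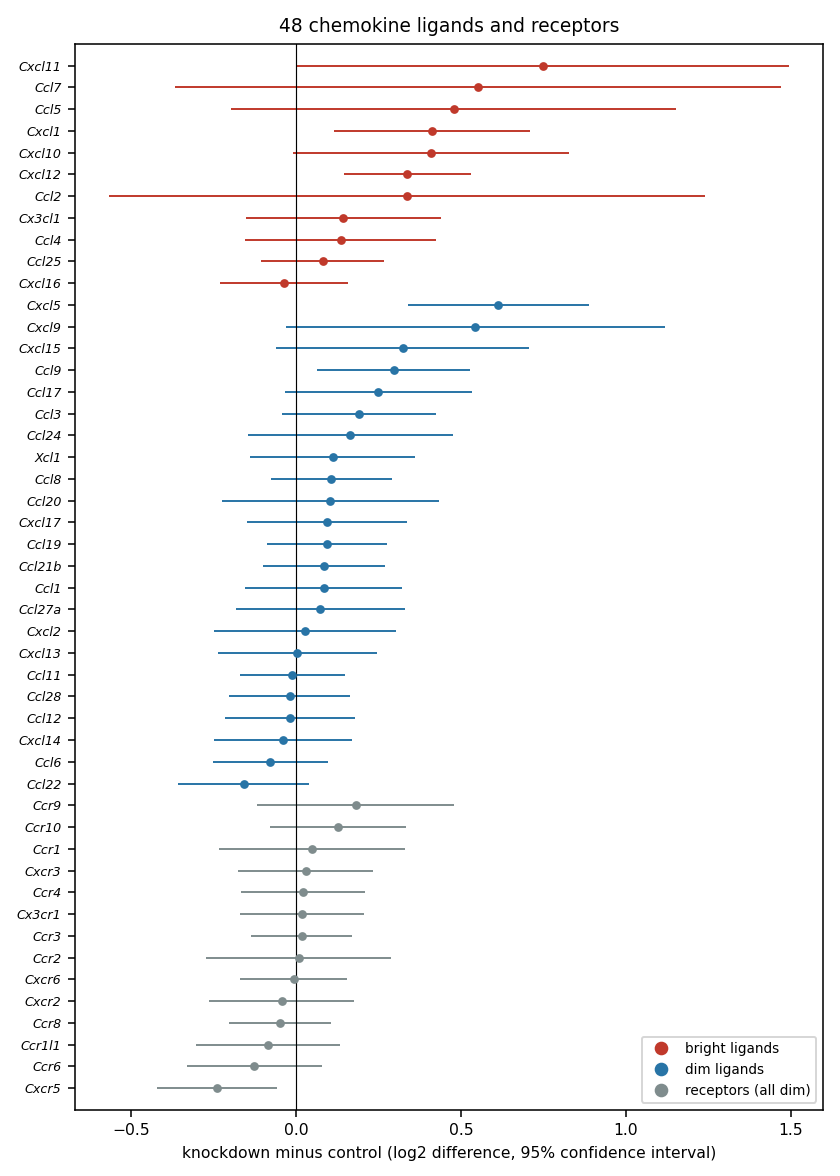
Mean log2 difference, knockdown minus control, with the 95% confidence interval from limma for all 48 genes, sorted within bright ligands, dim ligands and receptors. The intervals of Cxcl11, Cxcl1, Cxcl12, Cxcl5 and Ccl9 lie above 0 and that of Cxcr5 below 0, none of which passed over all genes.

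Most dim members lay close to the controls, with Cxcl9, Cxcl5 and Cxcl15 the furthest from them. Of the 37, Cxcl9 and Cxcl5 (2, or 5.41%) lay more than 1.5-fold above the control mean in knockdown 1, against 0.503% of all dim genes, and 0 did in knockdown 2, against 0.0702%. The 37 dim genes had differences between -0.24 and 0.61 with a median of 0.03, while the median over all dim genes was 0.0048, and an unadjusted p under 0.05 was reached by 2 upward (5.41%) and by 1 downward (2.7%). Over all dim genes these shares were 2.95% and 2%. Arrays that did not overlap were seen upward in 10 of the 37 and downward in 5, against 18.4% and 16.9% of all dim genes, and 9 of the 10 and 2 of the 5 were ligands. Of those not yet named, Ccl17, which attracts T cells bearing CCR4, read 4.62 in knockdown 1 and 4.90 in knockdown 2, against 4.58 and 4.43 in the controls, with most of the difference in knockdown 2. Ccl22, its partner as a CCR4 ligand and near neighbour, read 4.01 and 3.92 in the knockdowns, against 4.08 and 4.17 in the controls. The signs of these 2 genes were opposite (0.25 and -0.16), and Ccr4 differed by -0.03 in knockdown 1 and 0.08 in knockdown 2.

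All 14 receptors were dim, with mean signals between 3.07 and 4.43. Their differences ran from -0.24 to 0.18 with a median of 0.01, 1 lay above both controls in both knockdown arrays (Ccr10, 7.14%) and 3 lay below (Ccr6, Ccr8 and Cxcr5, 21.4%), against 18.4% and 16.9% of all dim genes. Cxcr5, the receptor that leads B cells into follicles, read 3.18 in knockdown 1 and 3.32 in knockdown 2, against 3.49 and 3.49 in the controls (log2 difference -0.24, SE 0.08, adjusted p = 0.728, limma). Only 9.8% of genes had a lower or equal mean signal, and a difference is hard to read there. Ccr9 read 3.94 in knockdown 1 and 3.58 in knockdown 2, against 3.54 and 3.63 in the controls, and 2 of its 4 probe sets had the opposite sign. At these levels a change in receptor RNA was hardly measurable, and the small differences do not show that receptor levels were equal.

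Neighbouring genes did not all read alike. In the annotation of GRCm38.p6, Ccl2 and Ccl7 open a run of CC ligand genes on chromosome 11 that continues with Ccl11, Ccl12, Ccl8 and Ccl1. Ccl2 and Ccl7 differed from the control mean by 1.00 and 1.22 in knockdown 1, whereas Ccl11, Ccl12, Ccl8 and Ccl1, all dim, lay between -0.03 and 0.12 in that array. Further along, Ccl5 differed by 0.96 in knockdown 1 and the members after it, Ccl9, Ccl6, Ccl3 and Ccl4, by -0.06 to 0.27. On chromosome 5 the neighbours Cxcl9, Cxcl10 and Cxcl11 differed by 0.94, 0.71 and 1.29 in knockdown 1, while in the other run Cxcl5 and Cxcl1 (0.77 and 0.59) enclosed Cxcl15 (0.08) and Cxcl2, beyond Cxcl1, differed by 0.13. Dim neighbours could have changed without being seen.

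**Figure D4:**
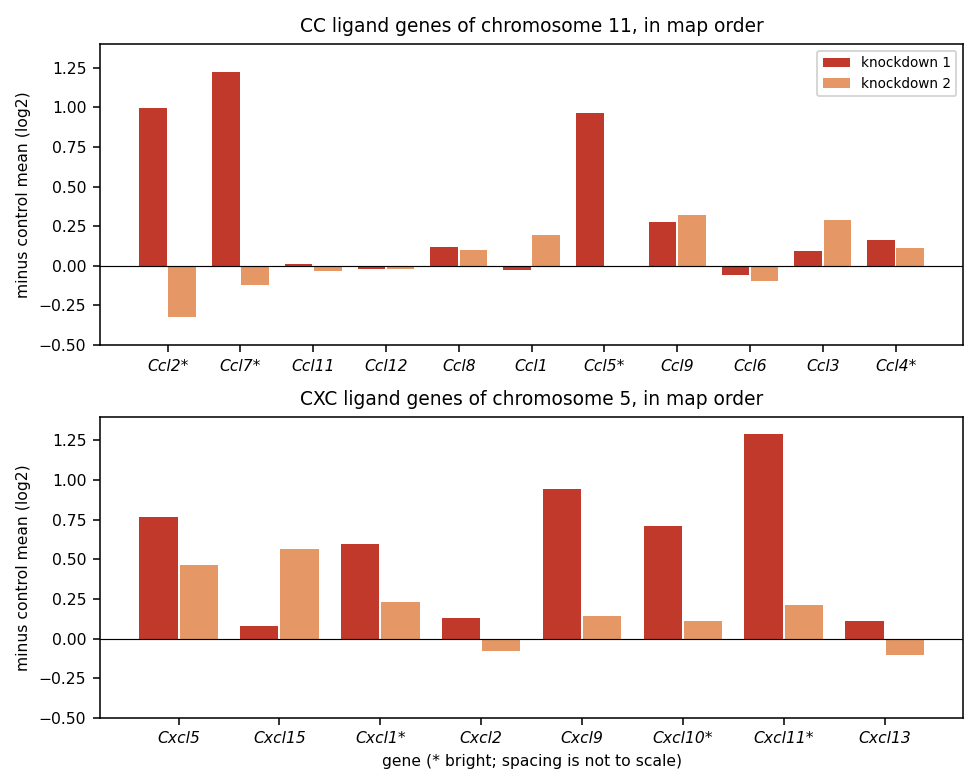
Log2 difference from the control mean in knockdown 1 (dark bars) and knockdown 2 (light bars) for CC ligand genes of chromosome 11 and CXC ligand genes of chromosome 5, in map order with spacing not to scale and bright genes starred. Tall knockdown 1 bars at Ccl2, Ccl7, Ccl5, Cxcl9, Cxcl10 and Cxcl11 stand beside bars near 0, and Cxcl15 is tall in knockdown 2 alone.

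Which members passed depended on which knockdown array was kept. With knockdown 2 left out, 14 of 48 members passed an adjusted p of 0.05 in limma, against 15.1% of all genes, and 13 of them were higher. They were Ccl2, Ccl5, Ccl7, Ccl20, Ccl24, Ccr9, Cx3cl1, Cxcl1, Cxcl5, Cxcl9, Cxcl10, Cxcl11 and Cxcl12, with Cxcr5 lower. With knockdown 1 left out, 4 passed, against 3.28% of all genes, Cxcl5, Cxcl12 and Cxcl15 higher and Ccl2 lower. Both fits take the lone knockdown array to vary like the controls. Cxcl5 and Cxcl12 were higher in both fits and Ccl2 turned from higher to lower.

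Genes that act upstream of inflammatory chemokines also lay higher mainly in knockdown 1. Of 18 measured transcription factors that induce them and inhibitors of these factors, 10 lay above both controls in both knockdown arrays and 0 lay below, against 21.2% and 17.1% of all genes, and 0 passed, with 5 higher and 0 lower at an unadjusted p under 0.05 in limma, against 4.15% and 2.52% of all genes. Their median difference was 0.33 in knockdown 1 and 0.04 in knockdown 2. Knockdown 1 lay above knockdown 2 for 15 of the 18, against 7995 of 17097 genes. Nfkbie and Relb differed by 1.11 and 0.92 in knockdown 1, against 0.06 and 0.03 in knockdown 2. Nfkbiz, a nuclear co-regulator of NF-kB, read 6.09 and 6.14 in the knockdowns, against 5.81 and 5.77 in the controls, and Jun, an AP-1 subunit, 7.75 and 7.58 against 7.41 and 7.36. The bright Rela, the transactivating subunit of NF-kB, differed by 0.14 in knockdown 1 and 0.03 in knockdown 2, and Cebpb, a factor of acute phase genes, read 8.63 and 8.10 against 8.29 and 8.32 with opposite signs in the knockdown arrays. For 18 inducing cytokines and their receptors the median was 0.17 in knockdown 1, against -0.02 in knockdown 2, and 0 reached an unadjusted p under 0.05 in limma. Of these, the double-stranded RNA receptor gene Tlr3 read 8.60 and 8.57 against 8.47 and 8.46, Il1r1 differed by 0.30 and 0.07 in knockdown 1 and 2, and Tnfrsf1a by 0.02 and -0.03. The cytokine gene Il6 was the most displaced of the 18 in knockdown 1. It differed from the control mean by 1.67 in knockdown 1 and -0.01 in knockdown 2.

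Downstream of the receptors, the median of 25 signalling genes was -0.02 in knockdown 1, against 0.04 in knockdown 2. In limma 0 passed, and 5 lay higher and 1 lower with an unadjusted p under 0.05, against 4.15% and 2.52% of all genes. Among the 5, Rgs4 differed from the control mean by 1.42 in knockdown 1 and 0.36 in knockdown 2, Rgs2 by 0.73 and 0.21, and Rgs1 by 0.57 and 0.14. The mean differences of Rgs3, Rgs5 and Rgs16 were negative. Gnai1, an inhibitory G protein subunit, read 7.45 and 7.55 in the knockdowns, against 7.79 and 7.81 in the controls, and Grk5, a receptor kinase, 5.55 and 5.64 against 5.28 and 5.29. The bright Gnb2 differed by -0.019 and 0.055 in knockdown 1 and 2, and Rac1 by -0.13 and -0.07. The 12 measured relatives of chemokines and their receptors outside the prefixes had 3 members above both controls in both knockdown arrays and 5 below, against 21.2% and 17.1% of all genes. Mif, a cytokine that also binds CXC receptors, read 11.16 and 11.16 against 11.23 and 11.23, a difference of -0.07 in either array, and Cklf differed by 0.09 and 0.07.

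Leukocyte RNA could carry both ligands and receptors, so its markers were read beside these results. Of 13 leukocyte markers measured 1 was bright, Cd14, which read 4.66 and 5.11 in the knockdowns, against 5.05 and 4.93 in the controls. Cd3e, a T cell marker, read 4.77 and 4.74 in the knockdowns, against 4.70 and 4.89 in the controls, and Cd79a, a B cell marker, 3.84 and 3.69 against 3.94 and 3.92. Lyz2, a lysozyme gene of myeloid cells, read 3.07 in knockdown 1 and 3.53 in knockdown 2, against 3.05 and 2.93 in the controls. It was 1 of 13 with both knockdown arrays above both controls, mainly through knockdown 2, and Cd79a was the 1 with both below, against 21.2% and 17.1% of all genes. The pan-leukocyte Ptprc was dim at 3.45 and 3.23 in the knockdowns, against 3.30 and 3.32 in the controls. The mean over the list was 3.97 and 4.05 in the knockdowns, against 4.05 and 4.01 in the controls. By the median, the 13 markers differed from the control mean by -0.03 in knockdown 1 and -0.05 in knockdown 2. Knockdown 1 lay above knockdown 2 for 7 of the 13, against 7995 of 17097 genes. The 6 endothelial markers were all dim, with means of 3.67 and 3.72 in the knockdowns, against 3.63 and 3.66 in the controls, and 1 of them, Vwf, was higher at an unadjusted p of 0.05 (log2 difference 0.24 in knockdown 1 and 0.55 in knockdown 2), against 4.15% of all genes. Kdr, the brightest, differed by 0.25 and -0.03, and Cdh5 by -0.08 and -0.15. RMA signals have no true zero, so absence of these cells was not measured, and the part of any such RNA in the results was not tested.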

How the data were processed

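The authors deposited log2 values that had been through RMA, per the submitters' processing notes, and log base 2 was inferred from their range, 2.17 to 12.72. The software, its version and the build were not given in the sources used here. Probe sets were named from the platform annotation, which can be old, and all 48 chemokine genes matched RefSeq by gene ID with 0 symbols changed. After leaving out 104 array controls, the brightest of the probe sets with 1 symbol stood for each gene. Chemokine genes with near-identical copies, such as Ccl21b and Ccl27a, may share probes with them. Knockdown and control, grouped by sample title, were compared over 17097 genes by a linear model with trended moderation (limma 3.58.1, R 4.3.3) with Benjamini-Hochberg adjustment. Tests are two-sided, and the step was tested on simulated data. The members, lists and tests were chosen with earlier results of these data known. Every bright member was named, and dim members where arrays did not overlap and the difference was at least 0.2, or as receptors, ligands or neighbours of bright ones. Other dim genes named by their position in a count were picked after their values were seen. From related lists, the 2 brightest genes and the 2 with the smallest p were named. Ptprc was added as the defining leukocyte marker, and the chondrogenic markers were all given. Nfkbie, Relb, Il6 and the Rgs genes were added after their values were seen. Precision is limited by 2 arrays per group. Alternatives were other normalizations, filters, probe set rules, moderation settings, a replicate block and leaving out each array. Same-numbered arrays did not deviate together (correlation over genes -0.0041), so numbers were not taken as pairs.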

Additional observations from a re-analysis of the deposited data

How the results depend on the processing

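Over all 45037 probe sets 1 passed, no chemokine among them, and 0 passed in every other full-data fit, adjusted p of 0.1 included. With the replicate number as a block, 0 genes and 0 chemokine genes passed in limma, the medians of bright and dim members stayed at 0.34 and 0.03, and the block changed no call after adjustment. At an unadjusted p under 0.05 it gave 9 higher and 1 lower chemokine genes, adding Ccl5, Cxcl9, Cxcl10 and Cxcl15, against 5 and 1 without it. Cxcl11 lost that mark under quantile normalization (0.0503), centring (0.0511), the 40th percentile filter (0.0714), the mean of probe sets (0.0839), no trend (0.0643) and robust moderation (0.134), and among all probe sets Cxcl9 and Cxcl10 gained it. Without control 1 or control 2, 3 and 2 chemokine genes had it higher and 0 lower, Cxcl1, Cxcl11 and Cxcr5 losing it in both and Ccl9 without control 2. The labels do not say whether the array numbers pair the samples, and the numbers were not taken as pairs. Leaving out each array in turn gave 0 to 2584 passing genes and 0 to 14 passing chemokine genes, with the high counts only when a knockdown array was left out. The median of bright members then ran from 0.10 to 0.59 and that of dim members from 0.0016 to 0.088. Differences changed sign without knockdown 1 for Ccl2 (-0.32 to 1.00 over the arrays left out), Ccl5 (-0.0070 to 0.96), Ccl7 (-0.12 to 1.22), Cx3cl1 (-0.024 to 0.31) and Cebpb (-0.21 to 0.32). Ccl4 ranged from -0.025 to 0.30, turning without control 1, Gnb2 from -0.019 to 0.055, turning without knockdown 2 or control 1, and Tnfrsf1a from -0.028 to 0.018, turning without knockdown 2. The dim median was 0.13 after leaving out genes under the 40th percentile, which leaves 7 of the 37 dim members. With the mean of probe sets Cxcl16 differed by 0.055, the mean of -0.036 in its brightest probe set and 0.145 in its dim second one. Cebpb then differed by -0.0056, and the cause was not tested. The other 250 values of 32 named genes kept their sign and their side of the adjusted threshold under the remaining processing alternatives. Signal near background limits what can be said of the dim members, receptors above all.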
